A study of Mus musculus with 5 samples.

Results

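The Hox genes of the 4 mouse clusters were examined in aortas of leptin receptor mutant mice. The members were all probe sets whose only annotated gene symbol was Hoxa, Hoxb, Hoxc or Hoxd followed by a number, which gave 37 of the 22626 non-control probe sets of the array and 31 of the 39 Hox genes that RefSeq lists for these clusters. The arrays analysed were 3 of db/db mice (replicates 1, 2 and 3), homozygous for the Lepr db allele, and 2 of db/+ mice (replicates 2 and 3), which carry 1 copy of it. All mice were males of 16 to 20 weeks from a colony of strain BKS.Cg-m +/+ Lepr db/J on regular chow, per the labels. The m in that strain name is the misty coat colour allele, and the labels do not say which animals carried it. Each array read a pool of 6 aortas, stripped of adventitia and surrounding fat according to the series text. The spread between arrays is therefore that between pools together with that of the measurement. The sources used here do not give the stretch of aorta that was taken.

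Hox genes encode homeodomain transcription factors that set position along the head-to-tail axis of the embryo. Within a cluster they lie in order: genes of low paralog number, at the 3' end, are expressed from anterior levels backward, and genes of high paralog number are limited to posterior levels. Adult smooth muscle cells and fibroblasts keep part of this code, so the Hox genes an aorta expresses are known to differ between arch, thoracic and abdominal segments. Hox proteins bind DNA together with TALE homeodomain partners of the Pbx, Meis and Pknox families, Polycomb and Trithorax complexes keep the genes off or on, and retinoic acid is a classic inducer of the anterior ones.

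The values were MAS5 signals, and the probe sets tested were those whose mean log2(signal + 16) lay above the 40th percentile of the array, a signal of about 39.5. Correlations between arrays, across probe sets, were 0.966 to 0.98 (r). The tissue label was checked against markers. All 10 smooth muscle markers were above the filter, and the smooth muscle actin gene Acta2 lay between 6378.6 and 9146.7. Markers of fat and of fibroblasts were measured on every array as well, although the series text says that fat and adventitia were removed. The brown fat gene Ucp1 lay between 2136.2 and 4334.5, the adipocyte hormone gene Adipoq between 1393.8 and 2790.7, and the fibroblast matrix gene Dcn at 4060 or above. Summed signals of 6 white adipocyte markers ranged from 7735 to 13470 in db/db and from 10770 to 11220 in db/+, and those of 7 brown adipocyte markers from 5783 to 11260 and from 7257 to 8360. The mutated gene, Lepr, had 3 probe sets, 1 of which was tested (81.2 ± 9.67, SD, n = 3, in db/db and 65.4 ± 8.70, SD, n = 2, in db/+, limma adjusted p = 0.77). Of those under the filter, 1 had 35.5, 23.3 and 23.7 in db/db and 4.6 and 6.1 in db/+, without overlap (unadjusted p = 0.00088 and limma adjusted p = 0.26 with no filter), and the other overlapped. Which receptor forms they read was not examined here, so they do not check the genotype. The 6 hepatocyte markers summed to between 281.1 and 529.7 in db/db and between 1382 and 1407 in db/+; of 5 tested, 2 passed, both lower in db/db (Alb at −2.24 and Bhmt at −1.93, limma adjusted p = 0.0090 and 0.024). Among the white adipocyte markers Lep passed (−2.96, adjusted p = 0.0073). Summed signals of 8 macrophage markers lay between 1845 and 2229 in db/db and between 3317 and 3960 in db/+, those of 8 endothelial markers between 1133 and 1470 and between 1787 and 1941, and the sums over 8 cardiac muscle markers between 427.1 and 3467 and between 859.3 and 1216. At the endothelial genes Cdh5 and Kdr the genotypes overlapped, with log2 changes of −0.057 and 0.039. The other endothelial markers were lower in db/db without overlap. In pooled tissue, fewer cells of a type and less RNA per cell cannot be told apart.

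Hox signals above the filter came mainly from the anterior and middle part of the code. Of the 37 probe sets 13, or 35.1%, were above it, and they stood for 10 genes. In paralog groups 1 to 3, 3 of 6 genes had a probe set above the filter (Hoxb2, Hoxa3 and Hoxb3). In groups 4 to 8 it was 6 of 12 (Hoxb4, Hoxa5, Hoxb5, Hoxb6, Hoxc6 and Hoxd8). In groups 9 to 13 it was 1 of 13, Hoxa9. None of the 9 genes measured in paralog groups 10 to 13 was above the filter. By cluster, 5 of 9 HoxB genes, 3 of 9 HoxA genes, 1 of 6 HoxC genes and 1 of 7 HoxD genes were. A signal depends on how well its own probes bind, so these counts say which probe sets were bright enough to test, and a gene under the filter may still be expressed.

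**Figure D1:**
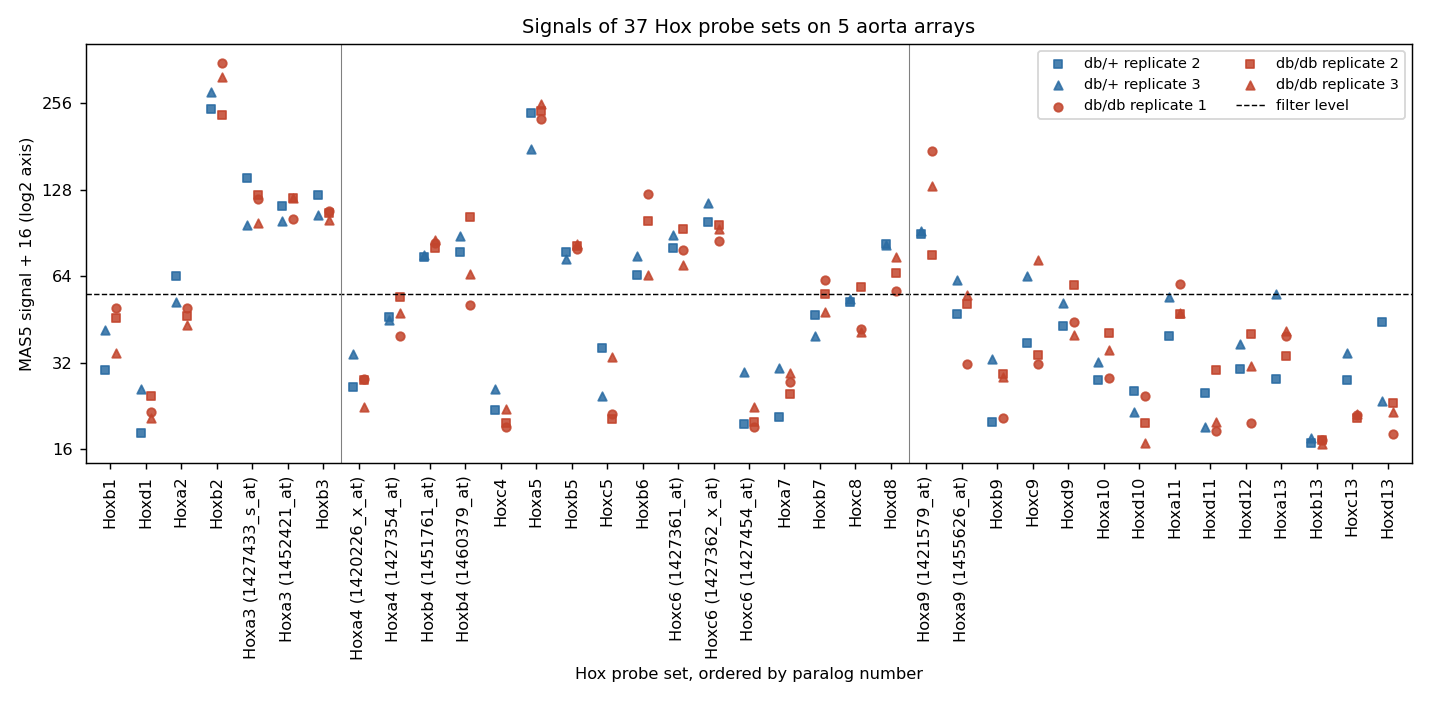
MAS5 signal plus 16 (log2 axis) of the 37 Hox probe sets, ordered by paralog number, on 2 db/+ arrays (blue) and 3 db/db arrays (red), with marker shapes for replicate numbers. The dashed line is the filter level, and grey lines separate paralog groups 1 to 3, 4 to 8 and 9 to 13, of which the last has 1 probe set with a mean above the line.

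The start regions of 3 members are shown, a middle gene of HoxA, a middle gene of HoxD and the last gene of HoxD. No anterior gene is among them. The sequences are the 250 bases before the RefSeq start (GRCm38.p6), with every CG dinucleotide, the substrate of DNA methylation, in capitals.
Hoxa5 (chr6:52204588-52204837, minus strand): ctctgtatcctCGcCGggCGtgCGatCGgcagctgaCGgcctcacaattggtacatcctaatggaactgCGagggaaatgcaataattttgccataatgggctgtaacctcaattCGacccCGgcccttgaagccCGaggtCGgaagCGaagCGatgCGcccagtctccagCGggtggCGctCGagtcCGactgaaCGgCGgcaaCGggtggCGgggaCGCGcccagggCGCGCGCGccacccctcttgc
Hoxd8 (chr2:74704365-74704614, plus strand): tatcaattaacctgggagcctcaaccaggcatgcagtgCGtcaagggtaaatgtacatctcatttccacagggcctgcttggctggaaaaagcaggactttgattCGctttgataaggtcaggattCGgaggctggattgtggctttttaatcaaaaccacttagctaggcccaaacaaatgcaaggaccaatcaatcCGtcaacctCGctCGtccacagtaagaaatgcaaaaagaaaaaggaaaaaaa
Hoxd13 (chr2:74667975-74668224, plus strand): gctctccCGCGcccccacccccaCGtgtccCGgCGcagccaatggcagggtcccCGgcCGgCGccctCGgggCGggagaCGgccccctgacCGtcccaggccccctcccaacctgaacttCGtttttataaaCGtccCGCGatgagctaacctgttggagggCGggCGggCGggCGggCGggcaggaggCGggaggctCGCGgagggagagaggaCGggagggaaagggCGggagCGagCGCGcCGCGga
Hoxa5 held 28 CG dinucleotides in these bases, Hoxd8 6 and Hoxd13 31. Hoxa5 and Hoxd8, both with a probe set above the filter, thus differed in their number of CG. RefSeq windows of 300 bases (the 250 shown and the following 50) were given for 18 of the 31 Hox genes. Their median number of CG was 14 over 5 windows of the 5 genes with a probe set above the filter and 15 over 15 windows of the 13 genes without one, against 7 over all 32851 windows. The motif TATAAA, searched on both strands, was present in 0 of the 5 windows and 2 of the 15 (Hoxa10 and Hoxd13), and in 13.6% of all windows. These are counts of letters only, and DNA methylation was not measured.

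The comparison of genotypes asked whether diabetic db/db aortas differed from db/+ aortas in their Hox genes. None of the 13 probe sets tested passed (limma, Benjamini-Hochberg adjusted p from 0.67 to 0.97), and 0 had an unadjusted p under 0.05. Of all 13575 probe sets tested, 0.081% passed and 8.13% had an unadjusted p under 0.05. The 13 log2 changes, db/db minus db/+, ran from −0.34 for Hoxd8 to 0.41 for Hoxb6, with 7 above 0 and 6 below. Their median was 0.093, beside 0.017 over all probe sets tested. At 4 of the 13 no db/db array reached into the range of db/+, 2 higher and 2 lower in db/db, where 25% of all probe sets tested did not overlap.

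The intervals show how much change the data still allow. The 95% intervals had half-widths from 0.34 to 0.70 on the log2 scale, and the median over all probe sets tested was 0.41. All 13 held 0, and 11 of the 13 lay wholly between −1 and 1, as did 93.2% of all probe sets tested. Those of Hoxb6 and Hoxa9 reached past 1. Adding 16 to each signal draws low values together, and with 1 added instead, 10 of the 13 intervals and 86.9% of all lay between −1 and 1. A p that misses the threshold does not show that the genotypes were alike.

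**Figure D2:**
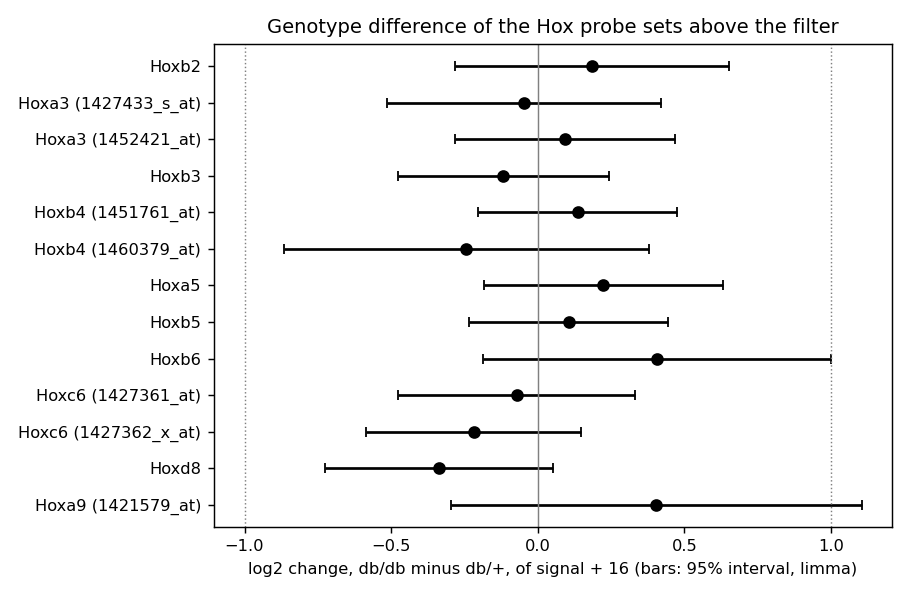
Log2 change between db/db (n = 3) and db/+ (n = 2) arrays of the 13 Hox probe sets above the filter, ordered by paralog number from the top, with 95% intervals from limma. Dotted lines mark −1 and 1, and every interval crosses 0.

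Among the anterior genes, Hoxb2, which patterns the hindbrain and the neural crest that supplies the arch arteries, had signals of 336.4, 217.1 and 299.8 in db/db replicates 1 to 3 and of 227.3 and 262.9 in db/+ replicates 2 and 3. The db/db arrays held both the highest and the lowest value. The log2 change was 0.18 (SE 0.21, 95% interval −0.28 to 0.65, limma adjusted p = 0.88). Leaving out db/db replicate 1 gave 0.059, and leaving out replicate 2 gave 0.36.

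Hoxa3, a patterning gene of the third pharyngeal arch and its artery, had 2 probe sets. The first (1452421_at) gave 84.9, 103.7 and 103.4 in db/db and 96.5 and 83.7 in db/+, and the second (1427433_s_at, of a type that can read several transcripts) gave 102.3, 106.7 and 81.7 against 123.9 and 80.1. At both the genotypes overlapped, with log2 changes of 0.09 (SE 0.16) and −0.05 (SE 0.21) and adjusted p of 0.93 and 0.97. Hoxb3 had 91.8, 89.9 and 84.4 in db/db and 106.9 and 88.8 in db/+, which gave −0.12 on the log2 scale (SE 0.16, adjusted p = 0.90). Here db/+ replicate 2 was the highest array, and the other 4 lay close together. Without db/+ replicate 2 the log2 change of Hoxb3 was −0.0020, and without db/+ replicate 3 that of Hoxa3 at 1452421_at was 0.0061. The 4 probe sets of paralog groups 1 to 3 had a median log2 change of 0.024.

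Under the filter in this part of the code were Hoxb1, Hoxd1 and Hoxa2, whose signals lay between 2.3 and 48.3. Hoxa2, which gives the second pharyngeal arch its identity, had 33.8, 30.6 and 27.3 in db/db and 48.3 and 36.1 in db/+. Its db/db arrays were all below both db/+ arrays, at signals mostly under the filter level.

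In the middle of the code, both probe sets of Hoxb4 were above the filter and differed in the sign of their log2 change. At 1451761_at the signals were 67.3, 64.1 and 69.3 in db/db and 58.9 and 60 in db/+, all db/db arrays being above both db/+ arrays by a small margin (log2 change 0.14, SE 0.15, limma adjusted p = 0.88). At 1460379_at they were 35, 86.7 and 48.9 against 61.4 and 72.2 (−0.24, SE 0.27, adjusted p = 0.88). There the db/db arrays spread on both sides of db/+, and leaving out db/db replicate 1 or 2 gave −0.017 or −0.52. The gene as a whole therefore gave no common direction.

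Hoxa5, a gene of the cervical and upper thoracic level that adult endothelium and lung also use, had 208.6, 223.1 and 238.8 in db/db and 220.9 and 161.2 in db/+. Only db/+ replicate 3 lay below the db/db arrays (log2 change 0.22, SE 0.18, 95% interval −0.18 to 0.63, limma adjusted p = 0.83). Without db/+ replicate 3 the log2 change was 0.014, and without db/+ replicate 2 it was 0.43.

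Hoxb5, its paralog in HoxB, had 63.5, 65.8 and 67 in db/db and 61.8 and 57.7 in db/+. The groups did not overlap, but the step was small (0.10, SE 0.15, limma adjusted p = 0.91). Hoxb6, its neighbour and a gene of the thoracic level, had 107.2, 83.2 and 48.4 in db/db and 48.4 and 59.3 in db/+. The db/db arrays ran from the level of the lowest db/+ array to well above the highest (log2 change 0.41, SE 0.26, 95% interval −0.19 to 1.0, adjusted p = 0.77). Leaving out db/db replicate 1 gave 0.20 for Hoxb6, and leaving out replicate 3 gave 0.67.

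Hoxc6, a thoracic gene, had 2 of its 3 probe sets above the filter. At 1427362_x_at, a type of probe set that can cross-hybridise, db/db had 68.8, 80.2 and 77.7 and db/+ had 82.8 and 98.5, with no overlap (−0.22, SE 0.16, limma adjusted p = 0.81). At 1427361_at db/db had 62.7, 77.4 and 54.2 and db/+ had 64.1 and 72.8, with overlap (−0.07, SE 0.18, adjusted p = 0.95). The third probe set lay between 3.1 and 13.8.

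Hoxd8, a trunk gene of HoxD, had the smallest p of the 13. Its signals were 41, 49.6 and 58.6 in db/db (49.7 ± 8.80, SD, n = 3) and 66.7 and 66.4 in db/+ (66.5 ± 0.212, SD, n = 2). All db/db arrays were below both db/+ arrays, and the db/+ arrays were nearly equal. The log2 change was −0.34 (SE 0.17, 95% interval −0.73 to 0.05, unadjusted p = 0.081, limma adjusted p = 0.67). The 8 probe sets of groups 4 to 8 had 4 log2 changes above 0 and 4 below, with a median of 0.016.

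The other middle genes, Hoxa4, Hoxc4, Hoxc5, Hoxa7, Hoxb7 and Hoxc8, had no probe set above the filter. Hoxb7, expressed in the embryonic trunk and kidney ducts, had 46.2, 39.6 and 32 in db/db and 30.9 and 23.6 in db/+, so that the db/db arrays lay above both db/+ arrays. Hoxc8, a gene of the lower thoracic level, had 26.1, 42.9 and 25 in db/db and 36 and 37.5 in db/+. Its db/db arrays lay on both sides of db/+. A probe set annotated to both Hoxb8 and Hoxb7, outside the members, gave −0.25 on the log2 scale (SE 0.21, limma adjusted p = 0.84), a direction opposite to that of the signals at the probe set of Hoxb7 alone.

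Hoxa9, a gene of the thoracolumbar boundary that adult endothelial cells also express, was the only posterior gene above the filter. At 1421579_at its signals were 158.1, 59.6 and 115.6 in db/db (111 ± 49.4, SD, n = 3) and 73.5 and 76 in db/+ (74.8 ± 1.77, SD, n = 2). The db/db pools thus differed among themselves by more than the genotypes did, with db/db replicate 2 below both db/+ arrays and replicates 1 and 3 above. The log2 change was 0.40 (SE 0.31, 95% interval −0.30 to 1.10, limma adjusted p = 0.81). Leaving out db/db replicate 1 gave 0.14, and leaving out replicate 2 gave 0.74.

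The other probe set of Hoxa9 (1455626_at) was under the filter and gave 15.8, 35.4 and 39.1 in db/db and 31.3 and 46 in db/+. Replicate 1 of db/db, the highest array at the first probe set, was the lowest at this one. The 2 probe sets of the gene therefore did not rank the arrays alike.

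The 12 other genes of groups 9 to 13 stayed under the filter, with signals between 0.7 and 57.1. Hoxc9 had 57.1 in db/db replicate 3 and 48.2 in db/+ replicate 3. It had 15.8, 18 and 21.6 in db/db replicates 1 and 2 and db/+ replicate 2. The 2 arrays that share replicate number 3 were high at Hoxc9, and the genotypes overlapped. Hoxd9 had 28.3, 43.6 and 23.9 in db/db and 27 and 35.5 in db/+, again with overlap.

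The genes of the most posterior level, paralog group 13, pattern limb ends, tail and urogenital tract. Hoxb13 lay between 0.7 and 1.5 on every array. Hoxc13, known for hair and nail, had 5, 4.6 and 5.2 in db/db and 11.8 and 18.5 in db/+. Hoxd13 had 2.1, 7.2 and 5.5 in db/db and 28.5 and 7.5 in db/+, where a single array was high. Hoxa13 had 23.6, 17.7 and 25.3 in db/db and 12 and 39.6 in db/+.

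When the filter was removed, 1 of all 37 Hox probe sets, Hoxc13, had an unadjusted p under 0.05 (0.0096, limma adjusted p = 0.52), where 7.02% of all probe sets did and 0.00442% passed after adjustment. Of the 24 Hox probe sets under the filter, the genotypes did not overlap at 4 (Hoxb7 higher in db/db, and Hoxa2, Hoxc13 and Hoxd13 lower), against 20.8% of all probe sets under the filter. At such signals the differences are small in absolute terms, and no fold is given.

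Array by array, the Hox probe sets did not move as 1 block. Against the mean of the db/+ arrays, the median shift of the 13 was 0.029 in db/db replicate 1, 0.086 in replicate 2 and −0.11 in replicate 3, on the log2 scale. Over all probe sets tested the same medians lay between 0.0035 and 0.035. Each of the 3 db/db arrays was the highest of the 5 at 3 of the 13 probe sets, db/+ replicate 2 at 3 and db/+ replicate 3 at 1.

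Replicate 1 of db/db had the highest signal at Hoxb2, Hoxb6 and Hoxa9 and the lowest at Hoxd8, at 1427362_x_at of Hoxc6 and at 1460379_at of Hoxb4. At Hoxb2 and Hoxa9, db/db replicates 1 and 3 were the 2 highest arrays and db/db replicate 2 was the lowest. The 8 cardiac muscle markers summed to 427.1 and 643.8 in replicates 1 and 3, below both db/+ arrays, and to 3467 in replicate 2, above both. Their part in the Hox signals was not tested.

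**Figure D3:**
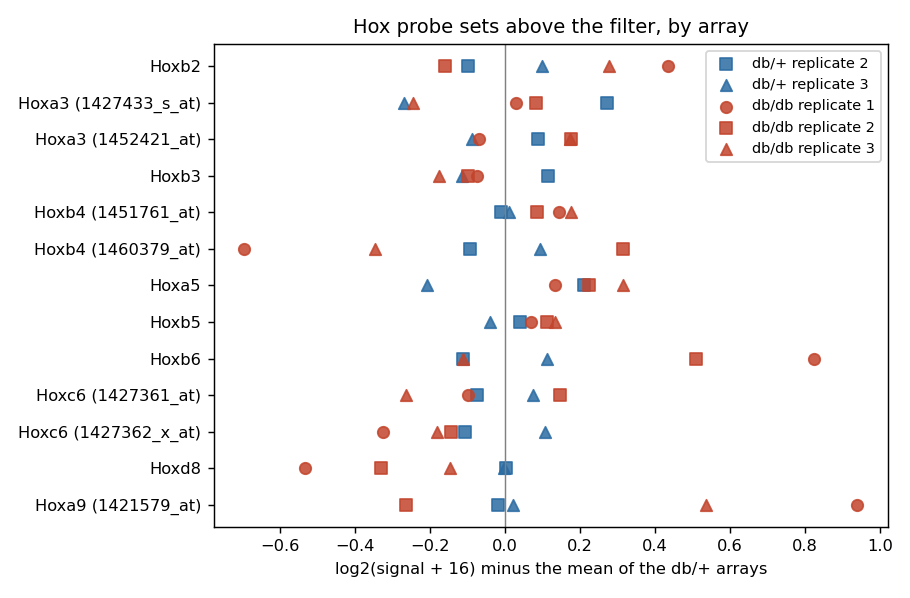
Log2(signal + 16) of each of the 5 arrays minus the mean of the db/+ arrays at the 13 Hox probe sets above the filter (blue db/+, red db/db, shapes for replicate numbers). The db/db points lie on both sides of 0, and they are spread most widely at Hoxa9, Hoxb4 (1460379_at) and Hoxb6.

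The TALE partners of Hox proteins were next. Of 9 genes listed 8 were measured and 7 tested, and 0 passed (limma, smallest adjusted p = 0.40). An unadjusted p under 0.05 was found at 1 of the 7, and at 8.13% of all probe sets tested. Pknox1, a partner that also binds with Pbx proteins, had 65.9, 66.8 and 62 in db/db and 47.4 and 26.2 in db/+. The db/db arrays were all above both db/+ arrays, and the log2 change was 0.64 (SE 0.20, adjusted p = 0.40). The other probe set of Pknox1 had a log2 change of 0.33. Meis3 and Pknox2 had log2 changes of −0.19 (SE 0.18) and 0.17 (SE 0.16). The median of the 7 was 0.11.

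Chromatin regulators of Hox genes showed small differences. Of 25 Polycomb and Trithorax genes 21 were measured and 17 tested, 0 passed (limma, smallest adjusted p = 0.80), and 0 had an unadjusted p under 0.05. The members with the smallest p were Ash2l, a core subunit of histone H3 lysine methyltransferase complexes (0.22, SE 0.16), the Polycomb subunit Eed (−0.18, SE 0.17) and Bmi1, a subunit of the other Polycomb complex (0.15, SE 0.16; 0.33 at its other probe set). The other probe set of Eed, under the filter, had 24.4, 24.9 and 23.4 in db/db and 12.9 and 17.1 in db/+. It was higher in db/db without overlap, where 20.8% of all probe sets under the filter did not overlap. That of Ash2l, also under the filter, had 3.4, 9.4 and 13.4 in db/db and 10.8 and 22.8 in db/+, with overlap. Kmt2a, the Trithorax methyltransferase that maintains Hox expression, had a log2 change of −0.13 (SE 0.15). The median of the 17 was 0.024.

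The retinoic acid list held the widest single difference among the tested members of the companion lists, at Aldh1a1, though no member passed. Of 17 genes 15 were measured and 7 tested, and 0 passed (limma, smallest adjusted p = 0.061). An unadjusted p under 0.05 was found at 3 of the 7, and at 8.13% of all probe sets tested. Aldh1a1, a retinaldehyde dehydrogenase that makes retinoic acid, had 172.3, 145.1 and 118.4 in db/db and 329.3 and 396.9 in db/+ (−1.24, SE 0.19, adjusted p = 0.061). The receptor gene Rxra had 273.1, 271.6 and 237.3 against 177.4 and 179.6 (0.51, SE 0.16, adjusted p = 0.41).

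Rdh10, which makes the retinaldehyde that Aldh1a enzymes use, had 70.3, 79.4 and 73 in db/db and 51.1 and 54.1 in db/+ (0.39, SE 0.15, limma adjusted p = 0.55). These 3 genes were picked for the smallest p of the 7 tested, which made a lack of overlap likely at them. At the probe sets given for them the genotypes did not overlap, while at Rarb, Rarg, Rxrb and Dhrs3 they did. Of all probe sets tested, 25% did not overlap. The other probe set of Rxra had 161.7, 154.6 and 140 in db/db and 163.8 and 150.6 in db/+, with overlap and a log2 change of −0.044. The hepatocyte and macrophage marker sums were lower on the db/db arrays too, and their part in the Aldh1a1 signals was not tested. The median of the 7 log2 changes was 0.063. Under the filter, Aldh1a2 had 24.5, 29.6 and 29.1 in db/db and 33.6 and 57.1 in db/+. Aldh1a3 had 6.3, 37.8 and 12.1 in db/db and 40.8 and 48.4 in db/+. Neither overlapped, where 20.8% of all probe sets under the filter did not overlap. Another probe set of Aldh1a3 had 4.4, 2.4 and 2 in db/db and 26.8 and 19.9 in db/+. The last had 6.2, 7.6 and 7.8 against 6.2 and 6.4, with overlap. Rara, Rxrg, Cyp26a1, Crabp1, Crabp2 and Stra6, also under it, overlapped.

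Genes beside the Hox clusters served as a look at the surrounding chromosome. Of 12 listed 7 were measured and 6 tested, 0 passed (limma, smallest adjusted p = 0.66), and 0 had an unadjusted p under 0.05. Snx10 and Skap2, on the HoxA side, had log2 changes of 0.42 (SE 0.21) and −0.28 (SE 0.19), and Mtx2, on the HoxD side, had −0.27 (SE 0.21). Of the caudal, Evx and related regulators 7 were measured and 1 tested, Gmnn, whose product geminin binds Hox proteins (−0.41, SE 0.21, adjusted p = 0.67). The probe sets of the caudal genes Cdx1, Cdx2 and Cdx4 and of Evx1 were under the filter, with overlap between the genotypes. Also under it, Evx2 had 63.1, 38.2 and 34.8 in db/db and 19.8 and 21.1 in db/+. Gdf11 had 61.6, 48.1 and 37.1 in db/db and 26.6 and 30.7 in db/+. Neither overlapped, where 20.8% of all probe sets under the filter did not overlap.

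Other developmental transcription factors of vessel wall lineages numbered 15, of which 14 were measured and 10 tested. None passed (limma, smallest adjusted p = 0.57). Where 8.13% of all probe sets tested had an unadjusted p under 0.05, 1 of the 10 did. This was Meox2, a homeobox gene of smooth muscle and endothelium, with 82.7, 76.6 and 101.3 in db/db and 60.1 and 61.1 in db/+ (0.42, SE 0.17, adjusted p = 0.57). Msx1 and Prrx2 had log2 changes of 0.34 (SE 0.18) and −0.29 (SE 0.17). The median of the 10 was 0.081.

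**Figure D4:**
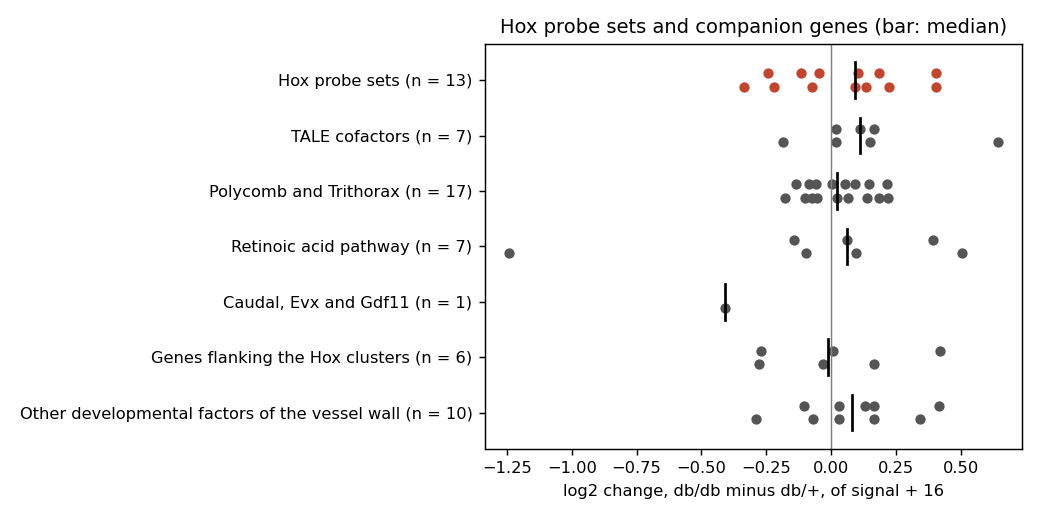
Log2 changes, db/db minus db/+, of the 13 Hox probe sets above the filter (red) and of the tested members of 6 companion lists (grey, 1 probe set per gene), with a bar at each median. The Hox values lie between −0.34 and 0.41, and Aldh1a1 in the retinoic acid list lies at −1.24.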

How the data were processed

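RNA of 6 pooled aortas per array was labelled from 10 µg of total RNA and hybridised to Affymetrix arrays, as the labels' protocols state. The authors deposited MAS5 signal intensities on a linear scale, per the submitters' processing notes, whose version of MAS5 is not given in the sources used here. MAS5 brings arrays to 1 scale by a trimmed mean. The 2% trimmed mean of the non-control probe sets was between 149.24 and 149.34, so no further scaling was applied. The table held 22690 probe sets, less 64 controls. Values were transformed to log2(signal + 16), and 13575 probe sets above the 40th percentile of the mean entered a linear model in limma 3.58.1 under R 4.3.3 (lmFit, eBayes, two-sided, no covariates; 3 residual and 5.63 prior degrees of freedom), with Benjamini-Hochberg adjustment over all of them at 0.05. The test was also tried on values simulated from its own fitted variance prior, which cannot check how it behaves on these pools. Names came from the platform annotation, and levels of different genes were not ranked. In lists, a gene stood by its probe set with the highest mean. Signals on each array were given for the 12 tested Hox probe sets with the smallest p and those without overlap, and, chosen after their values were seen, for the remaining tested one (Hoxa3), the other probe set of Hoxa9, Hoxc8, Hoxc9, Hoxd9 and Hoxa13, and values for the 3 members of each list with the smallest p; other genes were named for their role. Signals of Aldh1a2, Aldh1a3, Evx2 and Gdf11 and of the other probe sets of Eed and Ash2l, all under the filter, were also given. They were chosen after their values were seen, as were the log2 changes of Cdh5 and Kdr. The Hox members and lists were chosen with earlier results of these data known. Separate pools are stated by the series' design text. The p-values set the difference between group means against the spread between arrays, moderated over all probe sets tested. The number of arrays limits the precision. Other settings tried were a pseudocount of 1 or of 64, the filter removed or raised to the 60th percentile, arrays quantile normalized or centred on their medians, a robust eBayes prior with a trend, weighted arrays, a replicate block, and leaving out each array.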

Additional observations from a re-analysis of the deposited data

How the results depend on the processing

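None of the Hox probe sets passed under any of the 14 alternatives, where the smallest adjusted p was 0.30 (Hoxa9, without db/db replicate 2). Over all probe sets, 11 passed as reported, 2 with a pseudocount of 1, 37 with 64, 1 with no filter, 22 at the 60th percentile, 19 with median centring, 39 with trend and robust, 48 with array weights, and from 0 (without db/+ replicate 2) to 28 (without db/db replicate 1) with an array left out; the causes were not tested. The median Hox log2 change was −0.045 with no filter, and from 0.0061 to 0.12 with an array left out. That of paralog groups 1 to 3 was 0.012 with quantile normalization, −0.013 with median centring, 0.012 with array weights, and from −0.11 to 0.13 with an array left out. That of groups 4 to 8 was −0.12 with no filter (16 probe sets) and 0.22 at the 60th percentile, where Hoxa5 alone was left; it was −0.012 with quantile normalization, −0.021 with median centring, −4.3e-05 with array weights, and from −0.040 to 0.057 with an array left out. For groups 9 to 13 it rested on Hoxa9 alone, and was −0.028 over 14 probe sets with no filter. Single probe sets changed sign only when an array was left out: Hoxc6 1427361_at to 0.0019 without db/+ replicate 3 and 0.024 without db/db replicate 3 (lowest −0.18, without db/db replicate 2), and Hoxa3 1427433_s_at to 0.23 without db/+ replicate 2 and 0.055 without db/db replicate 3 (lowest −0.32, without db/+ replicate 3).

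Replicate numbers 2 and 3 occur in both genotypes. The difference between replicates 2 and 3 correlated between the genotypes with r = 0.0645 across 13575 probe sets. This single value cannot settle whether arrays of the same number were handled together, and the main fit did not pair them. With the replicate block 20 probe sets passed over the whole table and no Hox probe set, and the median of paralog groups 1 to 3 was −0.012. In that fit db/db replicate 1, the only array with its number, adds nothing to the estimate.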
